A study of Mus musculus with 8 samples.

Results

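The comparison set wild-type bone marrow cultures from 2 separate sets of mice against each other, 2 arrays a set, and used 4 of the 8 arrays of the series. Both Bob1 wt arrays (genotype Bob1+/+, the wild-type counterpart of the Bob1 knockout mice) were set against both BL6 wt arrays (genotype label C57BL/6Ncrl, the wild-type counterpart of the miR-146a knockout mice). The arrays were chosen by these labels and by no measured value. Strain was given as C57BL/6 for every mouse and age as 10 weeks, and both sets carried intact Bob1 and miR-146a genes as far as the labels tell. Every group held a culture of female mice, lettered A, and a culture of male mice, lettered B, so the replicate letter and the sex are 1 term here. The 4 knockout arrays were of Bob1-/- and mir-146a-/- mice, 2 each, also A female and B male. They gave a further measure of the spread and a second pair of groups. A set means here a wild-type group and the knockout group that the sample titles pair with it. How the mice of a set were bred is not given, so a set need not be 1 colony.

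Femoral marrow had been cultured with IL-7 for 5 days, and its total RNA was read on one-colour arrays. Duplicates are described as biological, without the number of mice behind a culture, and a p-value here measures the spread between these cultures. Levels are log2 signals relative to the 75th percentile of the same array: 0 is that percentile and a step of 1 is a doubling. A probe entered the comparison when both arrays of either wild-type group read it well above background, which held for 26214 of 41174 probes. With 1 probe kept for a gene, 17274 features were tested. The lowest signal well above background lay at a level of -6.17 to -5.84 on the wild-type arrays, and features dimmer than that have no measured level.

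IL-7 is the cytokine on which mouse B cell precursors depend, and marrow kept in it becomes enriched for pro-B and pre-B cells while other marrow cells persist in varying amounts. Mice called C57BL/6 descend from several substrains bred apart for many generations, which have come to differ in single genes, in the copy number of short chromosome segments and in endogenous retroviruses. Wild-type mice bred beside a knockout line and mice from a supplier can therefore differ in genotype although both count as wild-type. Transcripts of the B lineage were present on all 4 arrays. The surrogate light chain gene Vpreb1 lay between 7.72 and 8.32, and Cd79a, a signalling chain of the B cell receptor, between 2.07 and 2.44. Myeloid transcripts were high as well. S100a8, a calcium-binding protein of neutrophils, lay between 7.91 and 8.50, and Mpo, the myeloperoxidase of granulocyte precursors, between 4.51 and 5.43. RNA came from whole cultures, so fewer cells of a type and less RNA per cell cannot be told apart in any value below.

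Wild-type cultures from both sets of mice had nearly the same transcript levels. The median absolute difference of the group means was 0.10 on the log2 scale, 281 features (1.63%) differed by more than 2-fold, and 8 passed limma's test at an adjusted p of 0.05 (Benjamini-Hochberg over all features). That is 0.0463% of the 17274 features tested, 3 higher and 5 lower in Bob1 wt. At an unadjusted p under 0.05 there were 375 features (2.17%). Without Bob1 wt A 35 features were called, 30 of them higher in Bob1 wt, and without BL6 wt A 22 were called, 17 of them lower in Bob1 wt. The same test on the authors' deposited log2 values called 2, Tmem254a and A_51_P139641. Tmem254a was the 1 called feature that was well above background on all 4 wild-type arrays. The other 7 were below that limit on both arrays of one group, and their differences have only a lower bound. They passed the filter through the group in which they were bright. Their p-values were computed on the measured signals, under-background ones included, and do not test the bounds. For the knockout arrays paired with these groups, Bob1 KO against miR-146a KO, which also differ in the deleted genes, the test called 8.97% of features.

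Tmem254a, which encodes a predicted membrane protein of little known function, was the called feature measured in all 8 cultures. Its levels were 3.21 and 3.42 in Bob1 wt (A and B) and 0.66 and 0.61 in BL6 wt. The groups did not overlap, and the gap was far wider than the distance between the cultures of a group. The level was 6.41-fold higher in Bob1 wt (log2 difference 2.68, SE 0.14, limma adjusted p = 0.0023). Fitted on the 4 wild-type arrays alone, the log2 difference was again 2.68 but did not pass the test (adjusted p = 0.0522). On the arrays of slide 1 alone, which leaves out BL6 wt B, the log2 difference was 2.66, and a fit that blocks on the slide gave 2.69. Bob1 knockout cultures lay at 3.70 and 3.47, somewhat above the Bob1 wt cultures, while miR-146a knockout cultures lay at 1.93 and 1.85, between both wild-type groups. The knockout difference of 1.69 was called as well (limma adjusted p = 0.00196), and the change in difference from wild-type to knockout mice was not (0.99, adjusted p = 0.066). The 1 dim and 11 bright spots around the Tmem254a spot differed by less than 2-fold, and the bright ones had a median difference of 0.00. Its remaining neighbours, neither dim nor bright on all 4 arrays, differed by -1.03 and -1.67, in the other direction. Near-identical copies of the gene are annotated as Tmem254b and Tmem254c, and the probe may read several of them.

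The Tmem254a probe lies on chromosome 14 at 26743953 to 26744012 (mm9, minus strand, as the scanner files give it). Of the neighbouring probes, those of Plac9a and Duxbl1 also read higher in Bob1 wt, without passing the test, and their first 30 of 60 bases are shown with those of Tmem254a because 3 such probes could be 1 sequence in 3 places. The longest run shared by any pair of them was 6 bases.
Tmem254a: gctgagtcattttcctgccttttggctaaa
Plac9a: cttggagatgatggtttctgacttccaggg
Duxbl1: tactgaagagtaggcatgcagaattaggga

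Plac9a, named for its expression in placenta, has its probe at 26707963 to 26708391. It lay at -0.43 and 0.92 in Bob1 wt and at -3.72 and -3.65 in BL6 wt, a log2 difference of 3.93. The groups did not overlap, but the difference was not called (limma adjusted p = 1), since cultures of a group differed widely: the Bob1 knockout cultures lay at -2.01 and 0.19. Duxbl1, a double homeobox gene with its probe at 26809083 to 26809142, lay at -5.76 and -5.55 in Bob1 wt and was not well above background in BL6 wt, which makes it at least 1.22-fold higher (adjusted p = 1). On the knockout arrays Duxbl1 was not well above background, with -6.99 and -7.75 in Bob1 KO and -6.31 and -7.93 in miR-146a KO. Plac9a lay at -2.71 and -1.15 in miR-146a KO, above both BL6 wt cultures. Other genes of the stretch were level. Anxa11, an annexin whose probe starts at 26706088, differed by 0.06, Zcchc24 by 0.04 and Ppif by 0.00 on its upstream side, and Slmap by 0.02 on its far side. Cphx1, which lies between Tmem254a and Duxbl1, was below background on every wild-type array and was not tested. The stretch was looked up after the Tmem254a call was seen.

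**Figure D1:**
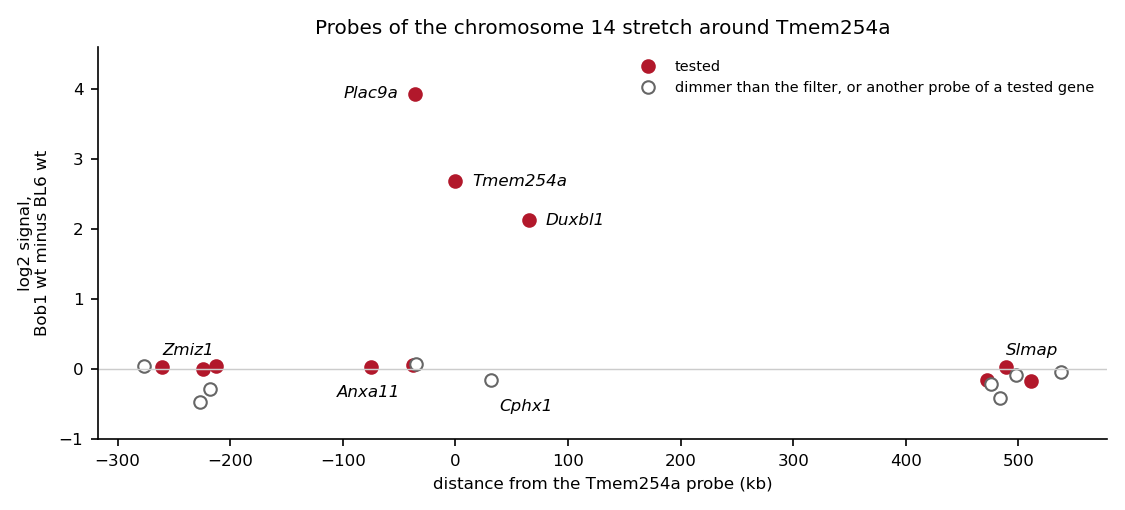
Log2 difference Bob1 wt minus BL6 wt of each probe around Tmem254a against its distance in kb from the Tmem254a probe; filled points were tested and open points were dimmer than the filter or a further probe of a gene. Plac9a (3.93) and Tmem254a (2.68) stand above neighbours that lie near 0. Duxbl1 is drawn at its measured 2.12, but it was not well above background in BL6 wt, and its bound is at least 1.22-fold.

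A_51_P139641, a probe with no gene name and no genome position in the scanner files, had the smallest adjusted p. Its description names an endogenous retroviral gag and env transcript, the kind of element whose copies differ among mouse strains. It lay at -6.62 and -6.52 in Bob1 wt, under the background limit, and at -1.41 and -1.35 in BL6 wt, at least 27.6-fold higher in BL6 wt (fitted log2 difference -5.19, SE 0.15, limma adjusted p = 0.000267). Each knockout group lay nearest the wild-type group that its titles pair it with. Bob1 KO lay at -6.98 and -6.84, and miR-146a KO at -2.16 and -2.52 (log2 difference -4.57, limma adjusted p = 1e-04). None of the 7 dim spots around this one was more than 2-fold higher in BL6 wt, and their median difference was -0.26. On slide 1 alone the difference was -5.16. No other probe with a retroviral description, searched for after this call, was called.

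The remaining 6 called features were bright in 1 wild-type group only, and 5 of them are described. Their adjusted p-values belong to the measured signals, under-background ones included, and not to the at-least folds printed beside them. Jakmip3, a microtubule-binding protein of neurons and endocrine cells, lay at -3.52 and -3.996 in BL6 wt and under background on both Bob1 wt arrays, at least 5.31-fold higher in BL6 wt (limma adjusted p = 0.0019). In the miR-146a knockout cultures of the same set it was at -8.23 and -8.04, also under background. Its other probe was under background on all wild-type arrays.

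Sall3, a zinc finger transcription factor of development, lay at -5.01 and -5.21 in BL6 wt, at least 2.08-fold higher than in Bob1 wt (limma adjusted p = 0.0032). Both other Sall3 probes were under background on all 8 arrays. A_52_P379037, described as an Atf2 transcript on chromosome 2, lay at -5.18 and -4.73 in BL6 wt and was at least 2.32-fold higher there (adjusted p = 0.0052). This call was lost in 5 of 21 other settings, with the 4 wild-type arrays alone and the slide as a block among them. Here and below the fit without BL6 wt B enters such counts again under the name of slide 1 alone. Unnamed probe A_52_P811047 (chromosome 15, 93680022 to 93680081) went the other way, with -3.06 and -2.72 in Bob1 wt, at least 8.31-fold higher than in BL6 wt (adjusted p = 0.0023). A_52_P2609, a probe with no genome position, lay at -3.85 and -3.62 in Bob1 wt, at least 4.62-fold higher (adjusted p = 0.034). It was lost in 13 of 21 settings, in the slide-blocked fit (adjusted p = 0.351) and without any 1 of the 4 wild-type or the 2 miR-146a KO arrays. The highest adjusted p over its settings was 1. On the 4 knockout arrays none of the 6 was well above background, and for each of them the change in difference from wild-type to knockout mice, on measured signals of which 3 of the 4 groups were under background, passed the test (limma adjusted p from 0.00194 to 0.0468). The wild-type difference that these 6 were called for also enters this test, so it is no independent result. The 8 called features lay on 6 chromosomes, apart from the 2 that could not be placed, with 0 pairs within 1 Mb of each other.

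**Figure D2:**
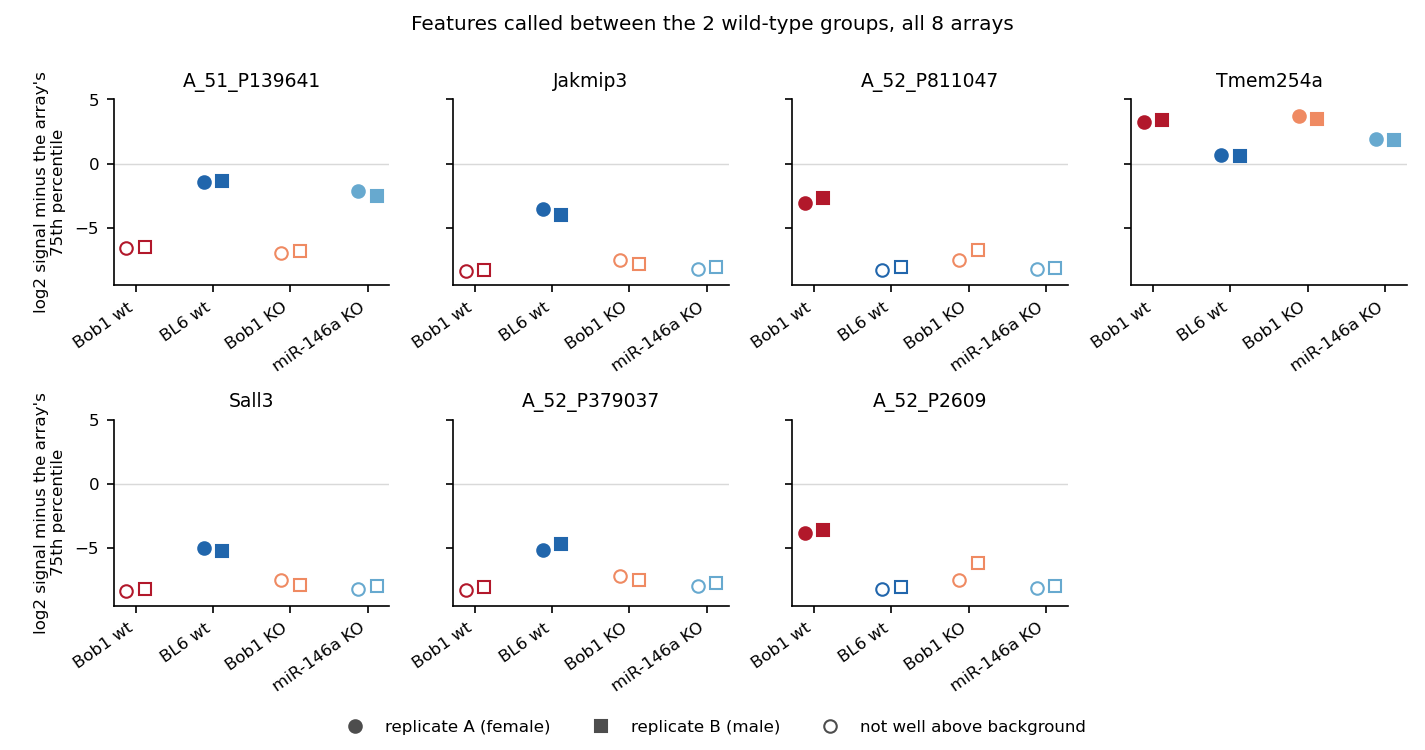
Levels of 7 of the 8 called features on all 8 arrays (log2 signal minus the array's 75th percentile; circles replicate A, female; squares replicate B, male; open symbols not well above background). Tmem254a and A_51_P139641 keep their order in the knockout arrays of the same sets, while the other 5 are bright on 2 arrays of 1 wild-type group.

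Some of the dim spots around these 6 on the glass moved with them. An array holds 532 rows and 85 columns of spots, and a neighbourhood of 2 rows and 1 column to either side was examined, a window chosen after the calls were seen. Of the called features, 6 of 8 had at least 1 dim neighbour (below the background limit on both arrays of the dimmer group) that was more than 2-fold off in the same direction. Among all such dim spots, 6.13% were more than 2-fold higher in BL6 wt and 5.49% more than 2-fold higher in Bob1 wt. These shares are per spot and do not compare with the count of features, which had 1 to 7 dim neighbours each. Among its 6 dim neighbours Jakmip3 had 4 that were more than 2-fold off in its direction, Serpinb7, Il5 and D630013G24Rik among them. Around A_52_P379037 it was 4 of 6 (Tdrd1, -3.93; Akap3, -3.87; Mcph1, -1.69; A_51_P218556, -2.43).

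Sall3 had 3 such neighbours of 6, and 1 of these was a spike-in control spot with no mouse sequence, which differed by -1.87. A_52_P811047 also had 3 of 6, again with a control spot, which differed by 3.77. For A_52_P2609 it was 1 of 3, and the median difference of its dim neighbours was -0.21, in the other direction. Of the 320 spots of these E1A controls, 10.0% differed by more than 2-fold. The bright neighbours of all 8 features, 63 spots, had medians of -0.11 to 0.03, and 1 of them differed by more than 2-fold. The part of these neighbouring signals in the 6 calls was not tested.

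**Figure D3:**
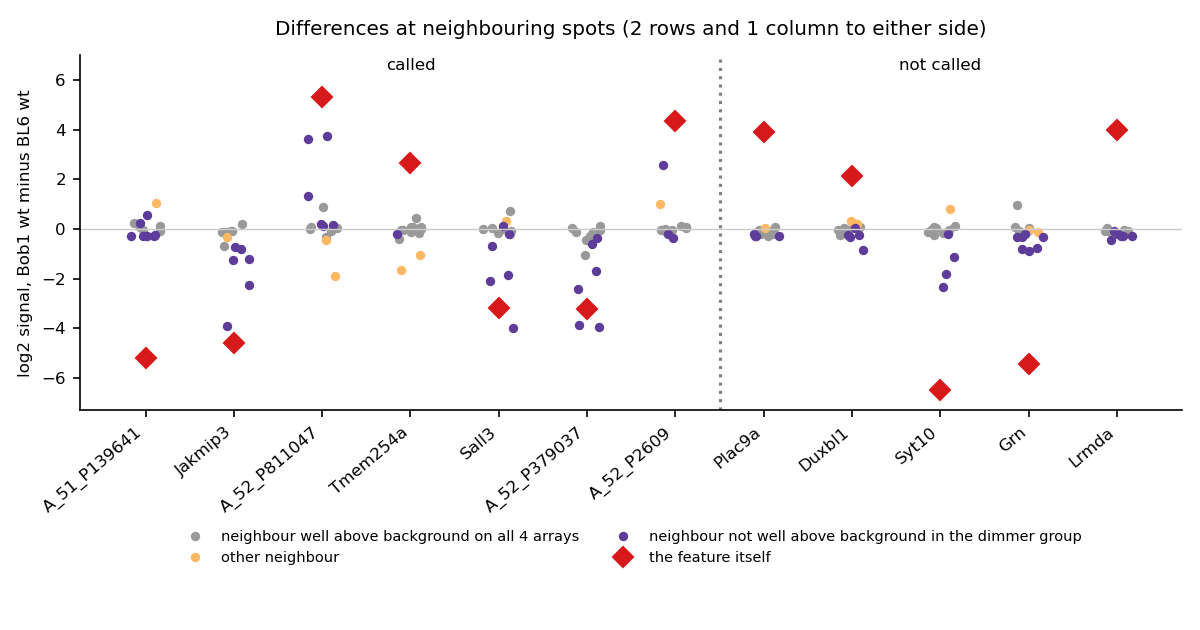
Log2 difference Bob1 wt minus BL6 wt of 7 of the 8 called features (diamonds at the measured value, left of the dotted line), of 5 features that were not called (right) and of the spots beside them (violet not above background in the dimmer group, grey bright on all 4 arrays, orange other). Some dim neighbours of Jakmip3, A_52_P811047, Sall3 and A_52_P379037 move with the feature. The dim neighbours of Tmem254a and A_51_P139641 stay near 0, and most bright neighbours stay near 0.

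Large differences that missed the test were more frequent than called ones. Past 4-fold (log2 of 2, a bound chosen after the data were seen) lay 67 features, 44 higher in Bob1 wt and 23 higher in BL6 wt, and 38 of them were under background on both arrays of the dimmer group. Syt10, a synaptotagmin of neurons, lay at -4.40 and -5.42 in Bob1 wt and 0.88 and 2.28 in BL6 wt (log2 difference -6.49, limma adjusted p = 0.57), and in the knockout arrays at -1.42 and -4.12 against 3.69 and 1.53 (adjusted p = 0.034). Its other probe was near background, and 3 of the 4 dim spots beside it were also higher in BL6 wt. Grn, the progranulin gene, differed by -5.45 on a probe that read 3.51 and 1.42 in Bob1 wt and 7.55 and 8.29 in BL6 wt (adjusted p = 0.96). A second Grn probe read 4.40, 4.11, 4.24 and 3.81 on those arrays, so both probes of this gene disagreed.

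Lrmda, a gene of melanocyte differentiation that also lies on chromosome 14, at 23875226 to 23875285, lay at -0.07 and -0.57 in Bob1 wt and at -3.83 and -4.77 in BL6 wt (log2 difference 3.98, limma adjusted p = 0.11). Both miR-146a knockout cultures, at -0.15 and 0.05, sat with Bob1 wt and not with BL6 wt. Vsig2, an immunoglobulin-domain surface protein, was lower in Bob1 wt (-1.67 and -2.01 against 0.82 and 1.45; adjusted p = 0.53). Its knockout difference was -2.26 (adjusted p = 0.037).

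A list of genes reported to differ among C57BL/6 substrains gave 12 tested members, and 1 of 12, Tmem254a, was called, against 0.0463% of all features. Tmem254a was put on the list with its result known. The median difference of the list was 0.00 beside -0.02 over all features. Nnt, the mitochondrial transhydrogenase that C57BL/6J mice lack in working form, lay at 4.04 and 4.16 in Bob1 wt and 4.16 and 3.99 in BL6 wt. These groups overlapped. In the miR-146a knockout cultures it lay at 3.24 and 3.16, below all 6 other arrays, and the knockout difference of 1.31 was called (limma adjusted p = 0.0032). Wdfy1 (-0.06), Ide (-0.02), Entpd4 (-0.29), Cyfip2 (0.04), Mmrn1 (-0.09), Dock2 (0.10), Nlrp12 (0.10) and Naip1 (0.08) were among the members not called. Of 19 tested genes from segments that vary in copy number among inbred strains, 0 were called between the wild-type groups, with 1 in each direction at an unadjusted p under 0.05, beside 2.17% of all features in either direction. Erdr1 lay at 5.44 and 5.57 in Bob1 wt and 6.35 and 6.80 in BL6 wt (difference -1.07, adjusted p = 1).

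Among the cell type lists none had a called member between the groups, and the stromal list stood farthest from 0. Of 22 tested genes of marrow stroma and vessels, 12 were higher on both Bob1 wt arrays than on both BL6 wt arrays and 1 was lower, while of all features 9.34% were so higher and 13.7% so lower. The median difference of the list was 0.57 on the log2 scale. Col3a1, a fibrillar collagen of connective tissue, lay at -1.32 and -1.12 in Bob1 wt and -3.96 and -3.17 in BL6 wt. Fabp4, a fatty acid binding protein of fat cells and vessels, lay at 0.06 and 0.03 against -1.18 and -1.06, and Dcn, the proteoglycan decorin, at -0.48 and -0.91 against -1.98 and -1.63. Cxcl12, the chemokine of marrow stroma that holds B cell precursors, lay at -0.89 and 0.46 against -1.38 and -1.54. None of these passed the test (limma adjusted p = 1 each), and in knockout cultures they varied as widely within a group: Col3a1 lay at -4.35 in Bob1 KO A and -1.11 in Bob1 KO B.

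The interferon response list had a median difference of 0.38 with 0 of 30 called. In 0 of 30 genes were both Bob1 wt arrays above both BL6 wt arrays, and in 1 both lay below. Of the 34 myeloid genes 8 were so higher and 0 so lower, beside 9.34% and 13.7% of all features. Medians of the other lists were 0.19 for myeloid genes (34 tested), -0.17 for erythroid and megakaryocyte genes (17), -0.29 for glycolysis and hypoxia genes (28), -0.14 for T and NK cell genes (21), 0.02 for mature B cell genes (30), -0.02 for early B cell genes (31) and -0.04 for cell cycle genes (32). Early B cell and cell cycle genes lay as near to 0 as features in general.

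Cultures of 1 genotype differed more from each other than cultures of the same letter and sex did across the sets of mice. Between the A and B cultures the median absolute difference was 0.201 in Bob1 wt and 0.201 in BL6 wt, and 3.59% and 3.84% of features differed by more than 2-fold. Both A arrays, from different sets of mice, differed by 0.117 (1.62% over 2-fold). Both B arrays differed by 0.152 (3.32%). Arrays that differed in set and in letter stood apart by 0.226 (Bob1 wt A and BL6 wt B) and 0.175 (Bob1 wt B and BL6 wt A). BL6 wt B was the 1 wild-type array on slide 2, so its distances also span the slides. These 6 values rest on 4 arrays, share them and are a description with no test.

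Among named genes that are not sex-linked, those whose measured signals lay farthest apart between cultures of 1 genotype were mostly single bright spots. Any probe well above background on 1 array of the group was considered, including probes left out of the test between the sets. In Bob1 wt the first was Dkk1, an inhibitor of Wnt signalling, which read -8.25 in A and 1.03 in B. In 10 of these 10 genes in Bob1 wt the dimmer array was not well above background, so that their order is not a measured one, and 8 of 10 were well above background on 1 of the 8 arrays only. Dkk1, Slc38a4, Kcnh5, Eya4 and Kcnq3 lay together in rows 145 to 148 and columns 8 to 13 of the array. In BL6 wt it was likewise 10 of 10, and 9 of 10 were bright on 1 array. Reg3d, a lectin of the gut, led there with -8.36 in A and -0.01 in B, followed by the neighbouring spots Pramel32 and Dab1.

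A block of spots on the Bob1 wt B array held most of such signals. On that array 106 spots were more than 4 log2 units above all 7 other arrays, against 4 to 39 on the others, and 72 of them (67.9%) lay in rows 101 to 180 and columns 1 to 20, which hold 3.59% of all spots. Bounds of the block were set after seeing it. Inside it 10.1% of 572 tested features were more than 2-fold higher in B than in A in Bob1 wt, and outside it 0.922% of 16702. None of the 8 features called between the sets lay in the block, and without it the same number, 8, was called.

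**Figure D4:**
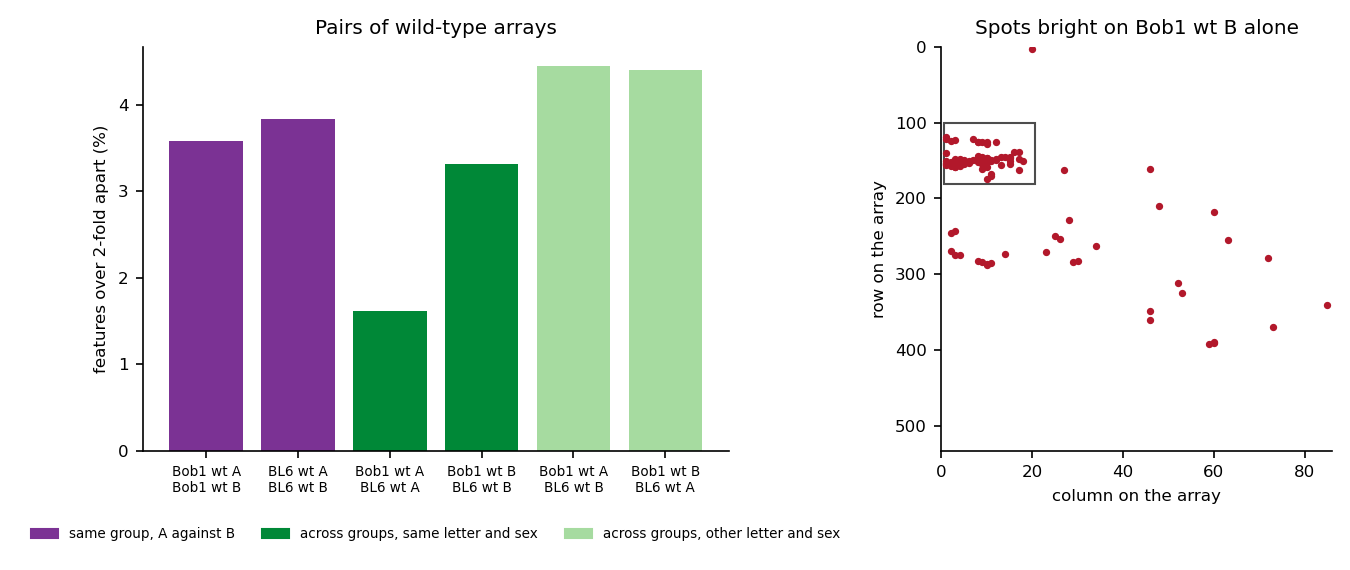
Left: share of tested features that differ by more than 2-fold between each pair of the 4 wild-type arrays (1.62% for both A arrays, 3.59% and 3.84% within a group). Right: row and column on the array of the 106 spots that are bright on Bob1 wt B alone, with a frame around rows 101 to 180 and columns 1 to 20, where 72 of them lie.

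Other features went apart in opposite directions. Over the 17239 tested features compared, more than 2-fold differences in both groups were seen in 216, 191 of them in the same direction (30.8% of the Bob1 wt list and 28.8% of the BL6 wt list) and 25 in opposite directions. The genes named next are not among these features: they were well above background on 1 array of each group, which the filter of the test leaves out. Mme, which encodes CD10, read -8.37 in A and -4.04 in B in Bob1 wt but -2.44 and -8.02 in BL6 wt. Lrrd1, whose spot lies 2 rows from that of Mme, showed the same order (-8.37 and -4.67, then -2.95 and -8.02). Each of the 10 genes of largest opposite difference was under background on the dimmer array of both groups. Tbx20, a heart transcription factor, was of the same kind but had the same direction in both, with -8.43 and -3.59 in Bob1 wt and -8.24 and -4.12 in BL6 wt.

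Restricted to the 16433 features well above background on all 4 wild-type arrays, a choice made after seeing those values, 160 features were more than 2-fold higher in the female than in the male culture of both groups and 11 were more than 2-fold lower. By comparison 133 of these features differed by more than 2-fold between the group means of both sets. Genes of mast cells and basophils stood among the 15 of largest shared difference. Prss34, a basophil protease, lay at 3.73 and 2.01 in Bob1 wt (A and B) and at 3.93 and 2.28 in BL6 wt. Cpa3, the mast cell carboxypeptidase, lay at 0.80 and -0.69, then 1.12 and -0.47, and Fcer1a, the IgE receptor alpha chain, at -1.26 and -2.74, then -0.96 and -3.02. In all of these the female culture of either set lay above both male cultures. In Bob1 knockout cultures the same differences were 0.20 (Prss34), 0.12 (Cpa3) and 0.00 (Fcer1a), and whether they differ from the wild-type ones was not tested.

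The test of female against male over all 4 groups, with the features of the wild-type comparison, called 7 features (0.0405%), all of them higher in female cultures. At an unadjusted p under 0.05 there were 2404 (13.9%), 7.77% higher and 6.14% lower in female cultures. With the slide as a block 0 were called (2180 at an unadjusted p under 0.05), and leaving out single arrays gave 0 to 11. Leaving out either BL6 wt, either Bob1 wt or either miR-146a KO array gave 0. Filtering on the letter in place of the group (well above background on the 4 arrays of either letter), tried after the 7 were seen, called 38 of 17307 (0.22%; 29 higher in female cultures, 0.168%), which held the same 7 and 11 features that the first filter leaves out, 6 of them sex-linked. Xist, the X inactivation transcript, and Ddx3y of the Y chromosome were of this kind, and each sat in the sex its label gives on every array.

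Gzmb, the granzyme of cytotoxic lymphocytes, lay at -0.97 and -2.55 in Bob1 wt, -0.70 and -2.37 in BL6 wt, -2.26 and -4.17 in Bob1 KO and -0.56 and -2.08 in miR-146a KO (A and B). The female culture lay above the male one in each group, by 1.67 on the log2 scale (SE 0.096, limma adjusted p = 0.034). Bcl11b, a transcription factor that T cells need to form, was 1.56 higher, the T cell receptor alpha segment Trav3n-3 was 1.85 higher, and probes described as T cell receptor alpha constant (A_52_P112591) and beta variable 15 (A_52_P557517) were 1.64 and 1.26 higher (adjusted p = 0.034 each). Rgs16, a regulator of G protein signalling in lymphocytes and other cells, was 1.19 higher (adjusted p = 0.037).

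Of the 21 tested genes on the T and NK cell list 1 was called, Gzmb, beside 0.0405% of all features. At an unadjusted p under 0.05, 16 of the 21 were higher in female cultures and 0 lower, beside 7.77% and 6.14% of all features. The median difference of the list was 0.82, against -0.02 over all features. The female culture was above the male one for 18 of 21 genes in Bob1 wt and for 18 of 21 in BL6 wt, where 45.9% and 41.4% of all features were. Cd8a, the co-receptor of cytotoxic T cells, lay at 0.33 and -1.16 in Bob1 wt and 0.39 and -1.17 in BL6 wt, and between the sets of mice it differed by -0.02. Cd3d and Cd3g, chains of the T cell receptor complex, were 1.43 and 1.47 higher in the female Bob1 wt culture and 1.13 and 1.61 higher in the female BL6 wt culture. Cd4 (-0.01 and -0.28) and Thy1 (-0.24 and -0.34) did not follow.

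**Figure D5:**
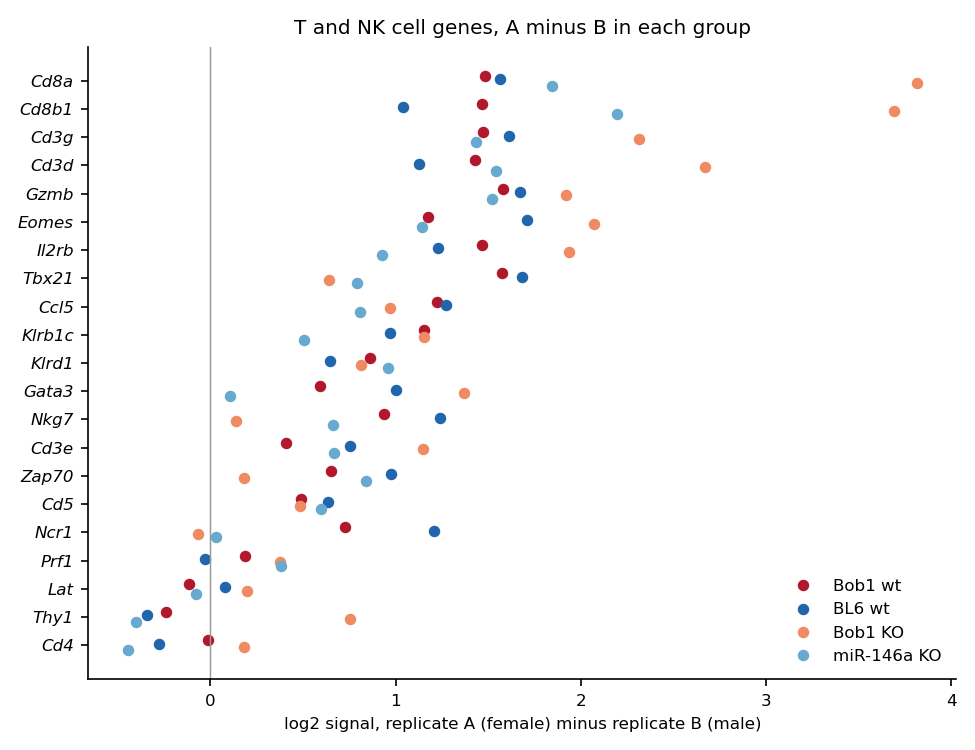
Log2 difference replicate A (female) minus replicate B (male) of each tested T and NK cell gene, 1 point for each of the 4 groups. Most points lie right of 0, with Gzmb between 1.52 and 1.92, and Cd4, Thy1 and Lat near 0.

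The 7th called feature was A_51_P395309, an unnamed probe on chromosome 7 (51476018 to 51476076, mm9) that lies between the tissue kallikrein genes Klk1b4 and Klk1. It was 1.95 higher in female cultures (limma adjusted p = 0.037), with -0.63 and -2.54 in Bob1 wt and 0.13 and -2.06 in BL6 wt. Kallikreins are secreted serine proteases, and the Klk1 group in mice consists of many near-identical copies, so that the probe of a gene may also read its copies. Tested features of this cluster, 13 in number, were looked up after the call. In all 4 groups 9 of them were higher in the female culture, beside 11.2% of all features. By more than 2-fold in both wild-type groups 8 of the 13 were higher there, beside 174 of the 17239 features compared. The called probe counts in the 13, the 9 and the 8. Klk1 differed by 1.92 in Bob1 wt and 2.28 in BL6 wt and Klk1b27 by 2.32 and 2.28. All 9 lay from Klk1b8 (start 51209619) to Klk1. The remaining 4, Klk10, Klk9, Klk8 and Klk4, which lie at 51039077 to 51141045 beside them, differed by -0.41 to 0.07 in the wild-type groups.

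Other lists split by letter as well, with 0 called members by the same test. At an unadjusted p under 0.05, 17 of 30 interferon response genes and 10 of 16 dendritic, mast and basophil genes were higher in female cultures and 0 of either were lower, beside 7.77% and 6.14% of all features. Median differences of both lists were 0.60 and 0.71. In the order Bob1 wt, BL6 wt, Bob1 KO and miR-146a KO they were 0.61, 0.94, 0.57 and 0.03 for interferon genes. For dendritic, mast and basophil genes they were 1.24, 1.13, 0.11 and 0.44. Rsad2, an antiviral protein induced by interferon, lay at -0.09 and -1.18 in Bob1 wt and -0.40 and -2.06 in BL6 wt. All 30 interferon genes read higher in the female Bob1 wt culture and 27 in the female BL6 wt culture, beside 45.9% and 41.4% of all features, and 13 of 30 did so in all 4 groups, beside 11.2%. Siglech, a receptor of plasmacytoid dendritic cells, was 1.48 and 2.06 higher in the female wild-type cultures. Of 32 cell cycle genes 0 passed the test, and at an unadjusted p under 0.05 there were 10 lower and 0 higher in female cultures, with a median of -0.14. By group the median difference of these genes was -0.23 in Bob1 wt, -0.22 in BL6 wt, -0.07 in Bob1 KO and -0.12 in miR-146a KO. In Bob1 KO the median level of the list was higher in the female culture (4.97 against 4.80). Early B cell genes had 1 in each direction of 31 and a median of 0.05. Erythroid and megakaryocyte genes had medians of 1.01 in Bob1 wt and 0.58 in BL6 wt, and myeloid genes 0.61 and 0.34. In Bob1 KO the medians of these 2 lists were -0.18 and -0.74, and in miR-146a KO 0.58 and -0.09.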

How the data were processed

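Cy3-labelled cRNA, primed with oligo-dT on total RNA from QIAzol, was hybridised to Agilent 4x44K mouse arrays, per the labels' protocols. Per the file headers, Feature Extraction 10.5.1.1 subtracted the background from each spot and removed a spatial trend, and the processed intensity it deposited was used here, with its deposited 0 or 1 flags for signal well above background, saturation (0 spots) and outliers (71 to 156 spots per array, left out). A further table deposited by the authors gives log2 values for the 8 arrays, with column medians of 9.587 to 9.589. How these were normalized is not given here, beyond the name of limma in the submitters' processing notes, and the values served as an alternative only.

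Control spots were left out, log2 intensity was taken minus the 75th percentile of its array (493 to 782 intensity units), and spots of a probe were averaged. Names came for 27584 of 41174 probes from a RefSeq gene list (GRCm38.p6) and for 7299 from the scanner files, 6291 had none, and coordinates are those of the scanner files (mm9). A gene was represented by its probe of highest mean over the 4 wild-type arrays. Group means of all 4 groups were fitted with limma on the 8 arrays (limma 3.58.1 under R 4.3.3), and a second fit added the replicate letter. P-values were adjusted by Benjamini-Hochberg over all features, with a threshold of 0.05. The procedure was tested on simulated data. For at-least folds each dim array counted at its lowest signal well above background, or at the probe's signal where that was higher. Alternatives covered the normalization, background correction, filter, arrays, slide and replicate blocks, and the empirical Bayes options. Slide 1 held both Bob1 wt arrays, BL6 wt A and miR-146a KO B, and slide 2 the rest.

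Called features with a symbol were named up to 15 a direction, with those also called in the knockout contrast, and between cultures the 10 of largest difference in each group, in both groups and in opposite directions, sex-linked genes left out. Unnamed called features are given as well, and 1 called feature and a few list members are not reported here. Members, lists and rules were chosen with earlier results of these data known. In the normexp alternative up to 6 spots per array had a local background above their signal and took the array's median background, a change made after the first run of it failed.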

Additional observations from a re-analysis of the deposited data

Results flagged for a closer look

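For 6 of the 8 called features the change in difference from the wild-type to the knockout groups of the same sets passed limma's test. These features were called for a large wild-type difference, which also enters the change, so passing this test is no independent result. Among the 5 described, the change came to -5.05 on the log2 scale for Jakmip3 (limma adjusted p = 0.00194), -3.59 for Sall3 (0.00255), -3.68 for A_52_P379037 (0.0032), 4.27 for A_52_P811047 (0.00503) and 3.13 for A_52_P2609 (0.0468). On both arrays of the brighter wild-type group the features were well above background, while on the arrays of the other wild-type group and on the 4 knockout arrays they were not. These values are therefore differences of measured signals and not sizes of a change: the wild-type bound was at least 2.08-fold for Sall3 and at least 5.31-fold for Jakmip3.

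Signal that differed between the groups was also present on spike-in control spots, which hold no mouse sequence and enter no comparison. The control spot beside A_52_P811047 differed by 3.77 in the same direction, and the one beside Sall3 by -1.87.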

How the results depend on the processing

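None of the 8 features called between the wild-type groups reversed its direction in a setting that tested it. Directions of the female against male features and of the lists were not compared across settings. The wild-type contrast gave 8 calls, and it gave 5 on the 4 wild-type arrays alone, 2 with the deposited value table (Tmem254a and A_51_P139641), 4 with a trended, robust prior and 1 where features had to be well above background on all 4 wild-type arrays (Tmem254a, as the other 7 were not tested there). Of the same 8 features, 5, 2, 4 and 1 were called in these settings and 4 with normexp background correction, which called 6 in all. Leaving out single arrays gave 7 to 35 calls, 22 without BL6 wt A and 35 without Bob1 wt A, and 7 to 8 of the named ones. Other settings gave 6 to 12. On the 4 wild-type arrays alone Tmem254a had a limma adjusted p of 0.0522. In the deposited table Jakmip3 differed by -0.09, A_52_P811047 by 0.15 and Sall3 by -0.04; the cause was not tested.

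Female against male gave 7 calls, 0 on the wild-type arrays alone, 0 with the deposited table, 0 with quantile normalization, 0 with the slide as block, 73 with the trended prior, 189 with normexp, 29 with the filter on all 4 wild-type arrays, 38 with the letter filter, and 0 to 11 without single arrays (limma). The settings with 0 calls held 1250 to 2864 features at an unadjusted p under 0.05. The knockout contrast gave 1549 calls, 578 without a filter, 2351 with normexp, 376 with the slide as block, 2438 with the replicate block, and 313 to 1221 without single arrays. With the replicate letter as a block the wild-type contrast again gave 8 calls. The letters marked sex, and no label ties a letter to shared mice, and the differences of A and B correlated at 0.0688 to 0.384 between groups, across features. The median difference between the cultures of a group was 0.0475 to 0.0497 in the deposited table and 0.152 to 0.21 in the other settings.

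With 2 arrays a group, the number of arrays limits every value, and 7 of the 8 calls compare a signal with one not above background.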
